A study of Homo sapiens with 4 samples.

Results

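The HOX genes were examined for FOXK1 binding in HK-2 cells, an immortalised human line of proximal tubular epithelium. They were taken as the protein-coding RefSeq symbols HOXA, HOXB, HOXC or HOXD followed by digits, which gave 39 genes of 20037 protein-coding genes on the assembled chromosomes. They lie in 4 clusters: 11 HOXA genes on chromosome 7, 10 HOXB genes on chromosome 17, 9 HOXC genes on chromosome 12 and 9 HOXD genes on chromosome 2. Chromatin was cut with micrococcal nuclease and sonication and then immunoprecipitated for the forkhead transcription factor FOXK1, from cells given TGF-β1 at 10 ng/ml for 24 h and from control cells without it. TGF-β1 is a cytokine that drives fibrotic responses, and the study asks how FOXK1 acts in renal fibrosis. A FOXK1 library and an input library were made for each condition, 1 of each. The data are 1 peak list per condition, each peak with a start, an end and a height, read here as the pileup of fragments that MACS2 reports. There were no replicates and the depth of the libraries was unknown, so every contrast between the lists compares 2 libraries, and a higher or lower height is not a measure of gain or loss. No test of TGF-β1 was possible. The lists hold no expression values, so neither the identity of the cells nor the activity of any HOX gene was checked. Over the whole assembly the TGF-β1 list held 439136 peaks and the control list 381700, with a median height of 5 in each.

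HOX proteins are homeodomain transcription factors that give cells their position along the head to tail axis of the embryo. Within a cluster all genes are transcribed in the same direction, low paralogue numbers lie at the 3′ side and are used first and furthest forward, and high numbers lie at the 5′ side and are used later and further back, an order called collinearity. Genes with the same number in different clusters are paralogues. Clusters are held silent by Polycomb complexes and opened by trithorax complexes, and many adult epithelia keep the HOX pattern of their origin. In the mouse, the paralogues with number 11 are together required for the kidney to form.

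The promoter sequences below show what lay under the HOX peaks and what lay outside them. RefSeq promoter windows on GRCh38.p14, each running from 250 bases before to 50 bases after an annotated start, matched 20 of the 39 genes and gave 26 different windows. Of these, 11 were met by a peak in both lists, 2 in the TGF-β1 list only, 1 in the control list only and 12 in neither. At a height of 10 or more in both lists there were 8. Shown are 5 of these 8, from the 3 clusters that had one, and the window of HOXA13, which no peak met. The share of all RefSeq promoter windows met by a peak was not taken, so these counts are only a description. HOXA3 alone gave 7 of the 26 windows. Among HOXB genes only HOXB1 had a window, and among HOXC genes only HOXC4 and HOXC5, so other starts there could not be counted. Capitals mark the bases covered by a peak in both lists, and the edge of a peak may be off by 1 base.
HOXC4 and HOXC5 (shared start), chr12:54016638-54016937, + strand: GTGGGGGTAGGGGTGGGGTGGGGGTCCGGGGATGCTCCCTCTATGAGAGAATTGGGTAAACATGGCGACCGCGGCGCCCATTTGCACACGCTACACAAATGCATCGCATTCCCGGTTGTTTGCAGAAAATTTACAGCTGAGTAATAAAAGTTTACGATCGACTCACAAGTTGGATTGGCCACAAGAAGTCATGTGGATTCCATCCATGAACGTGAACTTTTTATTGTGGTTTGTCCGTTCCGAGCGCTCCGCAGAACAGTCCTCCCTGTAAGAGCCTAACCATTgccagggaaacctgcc
HOXD11, chr2:176107030-176107329, + strand: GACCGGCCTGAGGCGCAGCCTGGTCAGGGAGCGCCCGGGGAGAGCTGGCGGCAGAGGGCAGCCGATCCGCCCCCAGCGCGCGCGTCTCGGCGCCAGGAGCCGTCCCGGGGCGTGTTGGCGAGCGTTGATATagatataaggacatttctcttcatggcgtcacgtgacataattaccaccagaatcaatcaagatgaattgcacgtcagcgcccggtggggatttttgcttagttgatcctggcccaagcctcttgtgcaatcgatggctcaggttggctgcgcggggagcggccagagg
HOXD1, chr2:176188418-176188717, + strand: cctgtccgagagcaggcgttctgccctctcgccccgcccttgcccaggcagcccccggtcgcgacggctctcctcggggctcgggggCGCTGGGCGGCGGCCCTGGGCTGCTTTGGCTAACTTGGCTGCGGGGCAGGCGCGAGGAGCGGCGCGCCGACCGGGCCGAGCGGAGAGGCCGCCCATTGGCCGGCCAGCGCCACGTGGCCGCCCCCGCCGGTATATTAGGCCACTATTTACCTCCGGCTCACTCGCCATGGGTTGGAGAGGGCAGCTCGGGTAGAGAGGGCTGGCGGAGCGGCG
HOXA3, an internal start, chr7:27118308-27118607, - strand: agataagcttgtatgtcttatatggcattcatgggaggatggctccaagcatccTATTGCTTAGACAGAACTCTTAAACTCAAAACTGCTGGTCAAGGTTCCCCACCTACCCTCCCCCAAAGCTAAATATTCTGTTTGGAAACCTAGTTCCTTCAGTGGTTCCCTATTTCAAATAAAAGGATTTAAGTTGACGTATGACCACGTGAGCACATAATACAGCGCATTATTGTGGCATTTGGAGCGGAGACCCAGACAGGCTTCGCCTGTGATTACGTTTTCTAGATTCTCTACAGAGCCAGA
HOXA9, chr7:27165488-27165787, - strand: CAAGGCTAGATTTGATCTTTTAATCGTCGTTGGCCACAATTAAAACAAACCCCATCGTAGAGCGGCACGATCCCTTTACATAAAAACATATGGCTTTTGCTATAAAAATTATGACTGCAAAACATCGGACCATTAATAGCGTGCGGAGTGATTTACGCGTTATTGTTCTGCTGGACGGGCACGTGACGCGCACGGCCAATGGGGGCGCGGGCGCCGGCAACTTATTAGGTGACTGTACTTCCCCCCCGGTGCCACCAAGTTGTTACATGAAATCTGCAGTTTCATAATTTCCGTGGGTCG
HOXA13, chr7:27200042-27200341, - strand: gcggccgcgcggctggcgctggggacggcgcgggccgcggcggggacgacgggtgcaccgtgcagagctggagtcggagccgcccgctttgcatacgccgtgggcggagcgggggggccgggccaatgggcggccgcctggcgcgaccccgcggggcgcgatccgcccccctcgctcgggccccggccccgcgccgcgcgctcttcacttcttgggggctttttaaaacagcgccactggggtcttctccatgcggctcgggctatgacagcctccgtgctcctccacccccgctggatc

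The windows differ widely in base composition. HOXA13, whose window no peak met, was 76.3% G or C with 44 CpG dinucleotides, and HOXD1, inside peaks of both lists over 213 of its bases, was 74.3% with 36. The internal HOXA3 start was 43.7% G or C with 6 CpG and was covered in both lists over 246 bases. HOXA9 was 48.0% with 22 CpG and was covered throughout, over 300 bases. The forkhead core was searched on both strands, as the letters GTAAACA with the reverse complement TGTTTAC. A shorter core that is part of it, TAAACA, was searched in the same way. GTAAACA occurred in 1 of the 26 HOX windows, that of HOXC4 and HOXC5, at 54016693 to 54016699 on chromosome 12. The match began at position -195 from the annotated start, inside the peaks of both lists. Of 34943 different RefSeq promoter windows of the same length, 3.42% held GTAAACA and 12.3% held TAAACA. The shorter core occurred in 4 HOX windows, that of HOXC4 and HOXC5 and 3 of the alternative starts of HOXA3. A match is a description of the letters and does not show a binding site.

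The HOXA cluster carried a dense run of peaks in both lists, which reached up to HOXA11. From the first base of HOXA2 to the last of HOXA11, 84.88 kb, there were 46 TGF-β1 peaks and 40 control peaks, or 542 and 471 peaks per Mb. Peaks covered 33.4% of these bases in the TGF-β1 list and 30.6% in the control list. Beyond HOXA11, over the 34.86 kb that hold HOXA13 and the flank, there were 4 TGF-β1 and 6 control peaks, 115 and 172 per Mb, none of them higher than 6 and 7. The limits of this run were drawn after the values were seen. In 20 kb steps from the lower-coordinate end, the share of bases covered in the TGF-β1 list was 19.9%, 37.8%, 38.8%, 40.2%, 17.3% and 10.2%. The control list gave 18.3%, 36.0%, 29.6%, 38.4%, 21.9% and 5.07% over the same steps. Both lists thus had their highest cover over the middle of the cluster, from HOXA3 to HOXA10, and less at HOXA13.

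**Figure D1:**
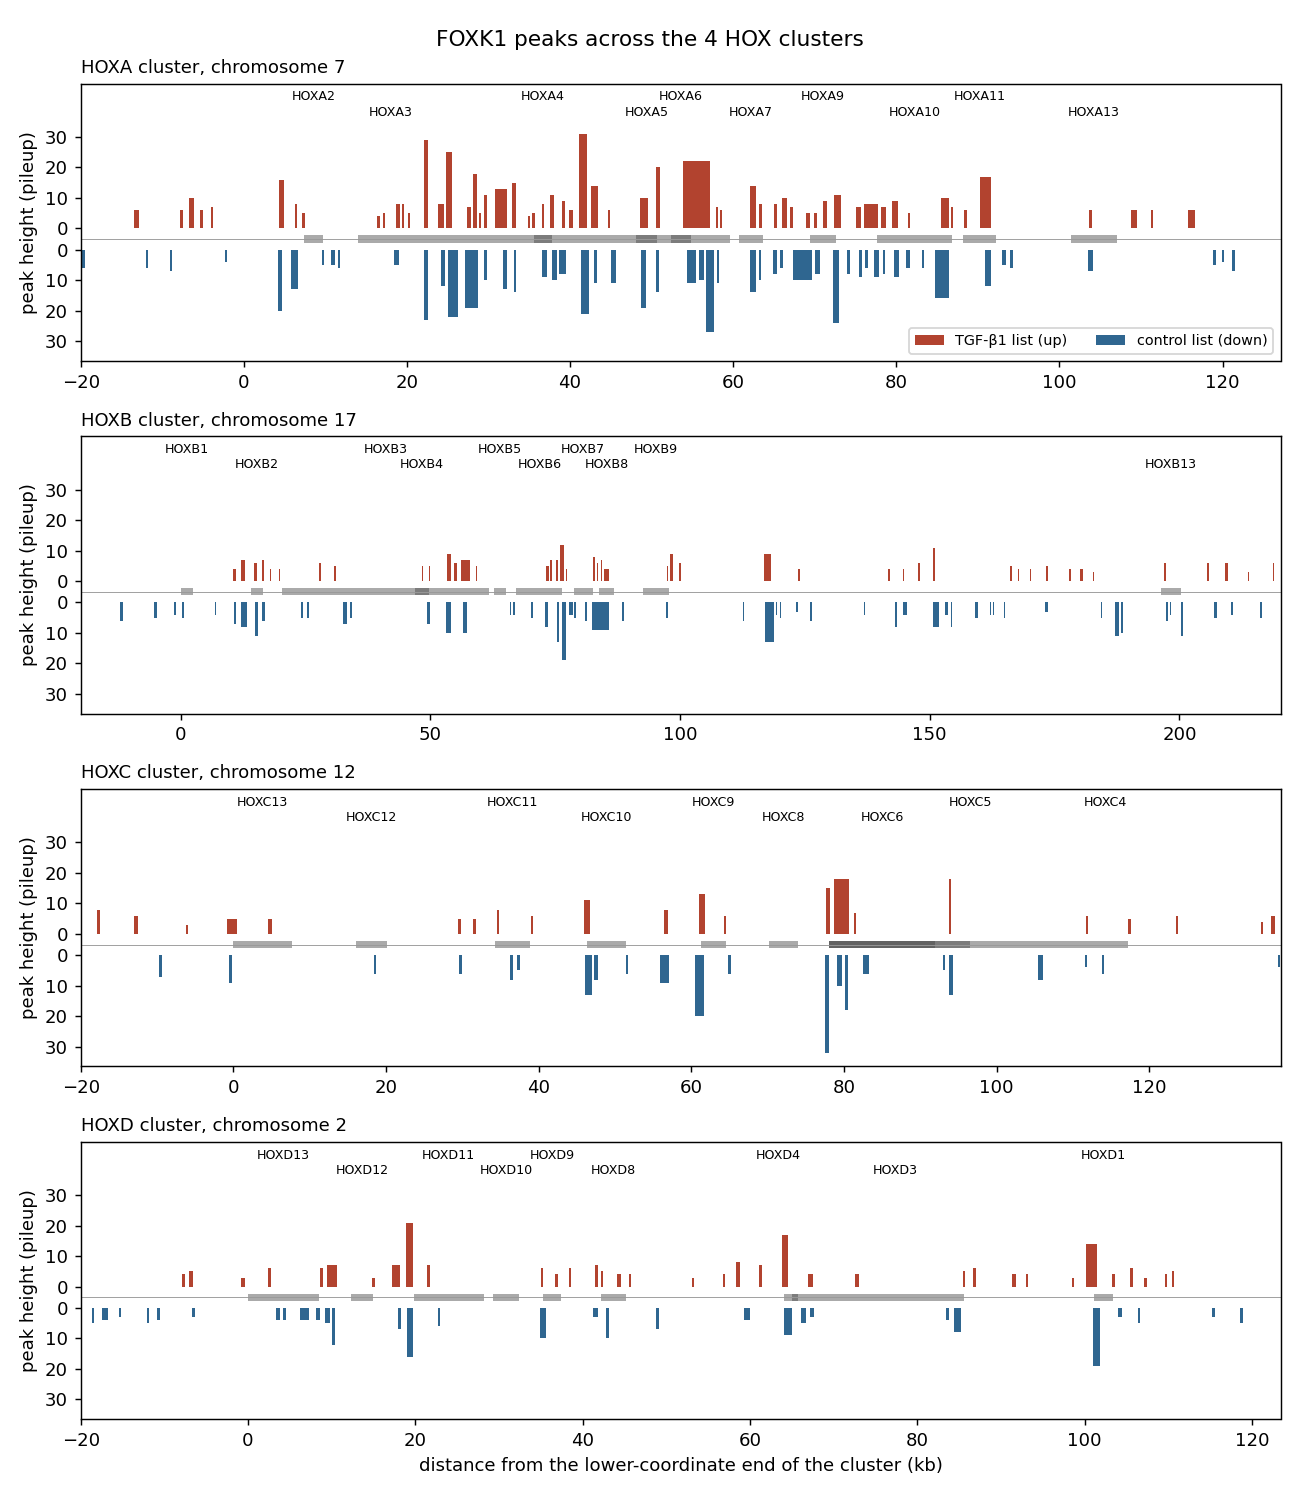
FOXK1 peaks of the 4 HOX windows, each a cluster with 20 kb on either side. The x axis is distance in kb from the lower-coordinate end of the cluster, bars up are TGF-β1 peaks, bars down are control peaks, bar width is peak width, bar length is peak height and grey boxes are HOX genes. HOXA has the densest run, with 59 TGF-β1 and 54 control peaks in all, and HOXC the fewest, with 22 and 22.

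The highest HOXA peaks lay inside the long annotated gene of HOXA3, which spans HOXA4, HOXA5 and HOXA6 and has several alternative starts. Over its 45.57 kb there were 28 TGF-β1 and 20 control peaks, of which 12 and 17 had a height of 10 or more. The highest TGF-β1 peak of all 4 windows, at chr7:27134048-27135033 between HOXA4 and HOXA5, had a height of 31, and the control peak it overlapped had 21. A height of 31 or more was reached by 0.45% of all TGF-β1 peaks. A second site, at chr7:27115068-27115534 in the TGF-β1 list, had 29, and the overlapping control peak had 23. The peak at the internal HOXA3 start printed above had 25 in the TGF-β1 list and 22 in the control list. The highest control peak of HOXA, with 27, was at chr7:27149711-27150634 in a stretch where a single wide TGF-β1 peak of 3289 bp, with a height of 22, also ran over the HOXA6 start.

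At HOXA gene ends, meaning within 1 kb of either annotated end, peaks were found for 10 of 11 genes in the TGF-β1 list and 9 in the control list, where 74.6% and 75.3% of all protein-coding genes had one. HOXA5, which patterns the lung in the mouse, had a site at each end, with 20 in the TGF-β1 list and 14 in the control list at the 5′ end, and 10 and 19 at the 3′ end. HOXA6 had 22 in the TGF-β1 list and 11 in the control list at its 5′ end. HOXA7 had 14 in each list at the same site. HOXA9, a factor of blood stem cells and leukaemia, had 11 in the TGF-β1 list and 24 in the control list, on the promoter printed above. HOXA10, known for its role in the uterus, had 10 and 16 in the TGF-β1 and control lists, from a site that is also an end of the readthrough gene HOXA10-HOXA9. HOXA11, a kidney patterning gene in the mouse, had 17 and 12 in the TGF-β1 and control lists. HOXA4 had 11 in the TGF-β1 list and 10 in the control list. HOXA2, which patterns the hindbrain and the branchial arches, had 8 in the TGF-β1 list and 13 in the control list at its 3′ end. HOXA3 had 6 at its outermost end in the TGF-β1 list and none in the control list, whose nearest peak was 1355 bp from an end, so its high peaks were all internal. HOXA13, a limb and genital patterning gene, had none at an end in either list. A peak of 6 in the TGF-β1 list and 7 in the control list lay inside the gene.

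**Figure D2:**
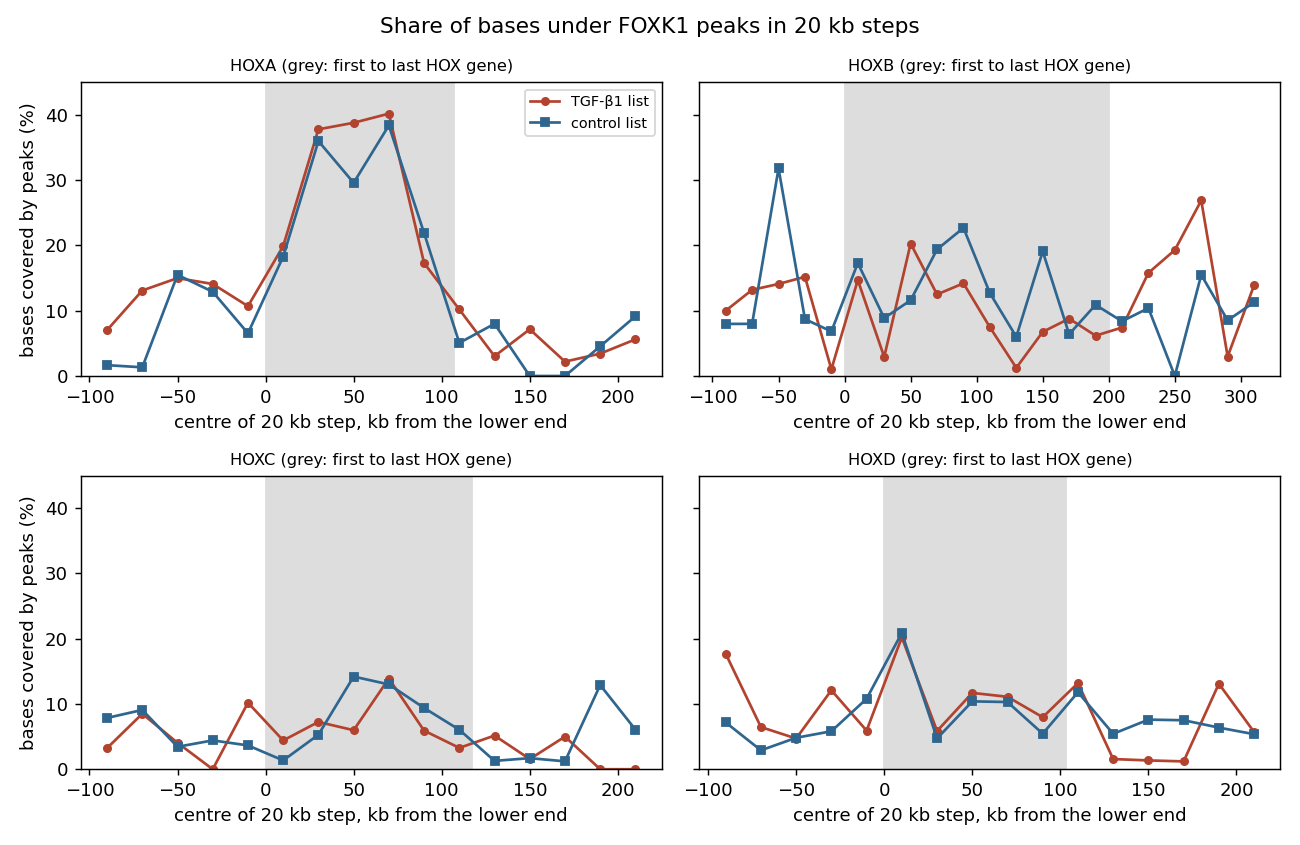
Share of bases under FOXK1 peaks (y axis, %) in 20 kb steps (x axis, kb from the lower-coordinate end of each cluster), with TGF-β1 in red circles, control in blue squares and the span of the HOX genes in grey. In HOXA the cover stands at up to 40.2% in the TGF-β1 list and 38.4% in the control list inside the cluster, while HOXC stays at or below 14.2% in either list there.

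The HOXB cluster had many low peaks and few high ones. Its window of 240.2 kb held 45 TGF-β1 and 54 control peaks, of which 2 and 9 had a height of 10 or more. HOXB6 had the highest peak at any HOXB gene end, 12 in the TGF-β1 list and 19 in the control list, at its annotated 5′ end. HOXB2, a hindbrain gene, had 7 and 11 in the TGF-β1 and control lists, at opposite ends of the gene. HOXB13, known from the prostate, had 6 in the TGF-β1 list at its 3′ end and 11 in the control list at its 5′ end, where no TGF-β1 peak overlapped. HOXB7 and HOXB8 shared a site of height 8 in the TGF-β1 list and 9 in the control list. HOXB9 had 9 and 5 in the TGF-β1 and control lists at places that did not overlap, and HOXB4, a factor of blood stem cells, had 5 and 7. At an end, HOXB3 had a peak of 4 in the TGF-β1 list and none in the control list, while inside this long gene the highest peaks were 9 in the TGF-β1 list and 10 in the control list. HOXB1 and HOXB5 had no TGF-β1 peak, and 5 and 4 in the control list. The 98.4 kb without HOX genes between HOXB9 and HOXB13 held 15 TGF-β1 and 20 control peaks. Its highest were a TGF-β1 peak of 11 and a control peak of 13, each inside a long non-coding RNA gene. A pair of control peaks of 11 and 10 below HOXB13 had no counterpart in the TGF-β1 list.

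The HOXC cluster had few peaks in number, and the high ones were grouped from HOXC10 to HOXC4. Its window of 157.2 kb held 22 peaks in each list, of which 5 TGF-β1 and 6 control peaks had a height of 10 or more, all of them between HOXC10 and HOXC4. From HOXC13 to HOXC11 there were 4 peaks in each list, none higher than 8 within that stretch. The highest control peak of all 4 windows, 32, covered the shared start of HOXC4, HOXC5 and HOXC6, and a TGF-β1 peak of 15 overlapped it. A height of 32 or more was reached by 0.642% of control peaks. The peak of 18 given for these genes in the TGF-β1 list is its neighbour, at chr12:54017486-54019473, which overlapped control peaks of 10 and 18. HOXC4, HOXC5 and HOXC6 are annotated from the same start, so these count as 3 genes but as 1 place. HOXC9, a thoracic and motor neuron gene, had 13 in the TGF-β1 list and 20 in the control list, and HOXC10, which acts in the hindlimb level of the spinal cord, had 11 and 13 in the same order of lists. A peak inside HOXC4 and HOXC5, away from their ends, had 18 in the TGF-β1 list and 13 in the control list. HOXC13, the hair and nail gene, had 5 and 9 in the TGF-β1 and control lists. HOXC11 had 8 at its 5′ end in the TGF-β1 list and no control peak at an end, while control peaks of 8 and 5 lay inside the gene. HOXC8 had no peak in either list, with the nearest 3779 bp from an end in the TGF-β1 list and 3611 bp in the control list. HOXC12 had no peak at an end in either list. Its nearest TGF-β1 peak was 9342 bp from an end, and a control peak of 6 lay inside the gene, 1424 bp from an end.

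The HOXD cluster had mostly low peaks, and the 3 highest of the TGF-β1 list lay at HOXD11, HOXD4 and HOXD1. Its window of 143.4 kb had 35 TGF-β1 and 30 control peaks, of which 3 and 5 had a height of 10 or more. The site just before the HOXD11 start had 21 in the TGF-β1 list and 16 in the control list. HOXD11 is the HOXD member of the mouse kidney paralogues. The site at HOXD4, which also lies at an end of HOXD3, had 17 in the TGF-β1 list and 9 in the control list. HOXD1 had 14 in the TGF-β1 list and 19 in the control list, across its start and the end of the non-coding gene HAGLR. HOXD8 and HOXD9 had 7 and 6 in the TGF-β1 list and 10 and 10 in the control list. HOXD13, whose changes cause fused digits in people, had low peaks of 7 and 5 in the TGF-β1 and control lists at its 3′ end. A control peak of 12 lay beyond that end, outside 1 kb, and overlapped a TGF-β1 peak of 7. HOXD12 had 3 in the TGF-β1 list and no control peak, and HOXD10 had none in either list, with the nearest 2533 bp and 2433 bp away in the TGF-β1 and control lists.

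Set against the genome, HOXA ranked among the densest places in either list, and the other clusters ranked lower. The 4 windows together held 161 TGF-β1 and 160 control peaks, or 234 and 233 peaks per Mb, against 146 and 126 over the genome in the TGF-β1 and control lists. The ratio of HOX windows to genome was thus 1.61 in the TGF-β1 list and 1.84 in the control list. Without HOXA, an alternative added after the values were seen, it was 1.30 in the TGF-β1 list and 1.55 in the control list. HOXA had 401 TGF-β1 and 367 control peaks per Mb, HOXB 187 and 225, HOXC 140 and 140, and HOXD 244 and 209. Of 13253 tiles of 150 kb that held a protein-coding gene, 4 were as dense as the HOXA window in the TGF-β1 list and 1 in the control list, and none of these met a HOX cluster. For peaks of height 10 or more, HOXA had 129 TGF-β1 and 177 control peaks per Mb, and 2 tiles and 0 tiles were as dense. The median tile had 160 TGF-β1 and 140 control peaks of any height per Mb. The share of tiles as dense was 31.7% for HOXB, 66.2% for HOXC and 8.53% for HOXD in the TGF-β1 list. In the control list it was 6.27%, 53.9% and 9.50%. Tiles rich in genes were not as dense as HOXA: in the 265 tiles with at least 8 protein-coding genes, the median was 187 peaks per Mb in each list and the highest 307 in the TGF-β1 list and 293 in the control list. The window lengths differ from that of a tile, and these ranks describe the 2 libraries. Tiles were laid on a fixed grid, while the HOXA window was placed around its cluster. A dense run can be split between tiles, and the tiles over HOXA itself were also less dense than its window. The HOXA rank is thus favoured by the placing of its window.

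The HOXA window was dense within its own surroundings too. The 500 kb below it had 256 TGF-β1 and 170 control peaks per Mb, the 500 kb above it 184 TGF-β1 and 116 control, and chromosome 7 as a whole 160 and 127. Of the HOXA peaks, 19 of 59 in the TGF-β1 list and 26 of 54 in the control list had a height of 10 or more, which is 32.2% and 48.1%, against 6.71% and 9.66% of all peaks. HOXB had 4.44% and 16.7%, HOXC 22.7% and 27.3%, and HOXD 8.57% and 16.7% in the TGF-β1 and control lists. Signal of the input libraries was not used here, and the part of copy number or open chromatin in the HOXA density was not tested.

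**Figure D3:**
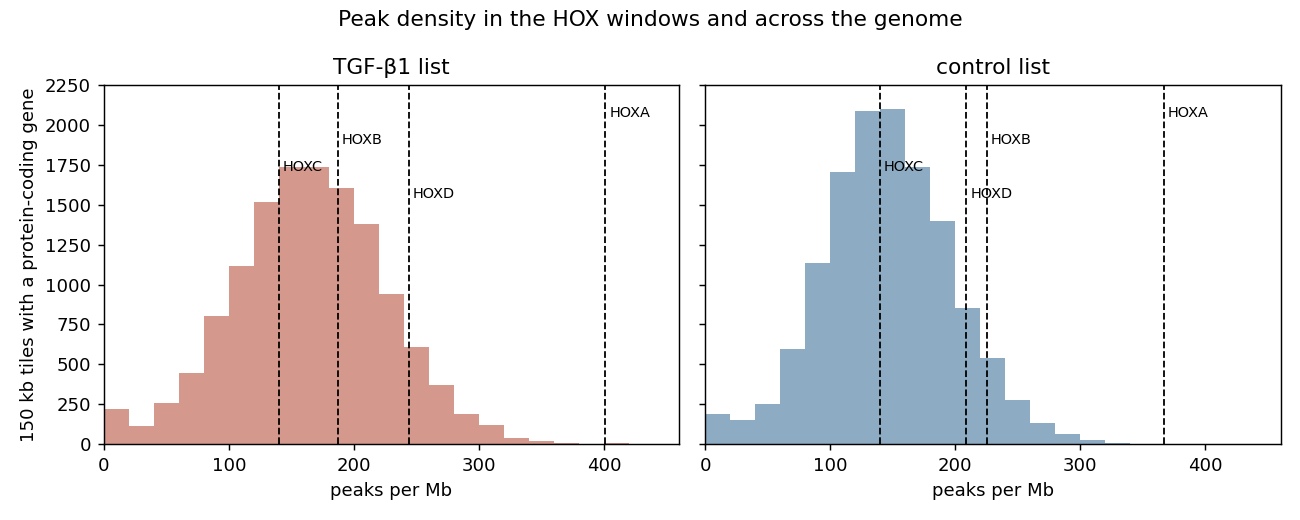
Distribution of peak density (x axis, peaks per Mb) over 13253 tiles of 150 kb that hold a protein-coding gene (y axis, number of tiles), with the TGF-β1 list on the left and the control list on the right, and dashed lines for the 4 HOX windows. HOXA lies at 401 and 367 peaks per Mb, beyond nearly all tiles, and the other clusters lie within the body of the distribution.

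At gene ends the HOX genes as a group were close to other genes. Of the 39 HOX genes, 33 in the TGF-β1 list and 31 in the control list had a peak at an end, 84.6% and 79.5%, against 74.6% and 75.3% of all protein-coding genes. Both lists had 29 of the 39, against 64% of all genes. Peaks in the TGF-β1 list only were found for 4 (HOXA3, HOXB3, HOXC11 and HOXD12), in the control list only for 2 (HOXB1 and HOXB5), and in neither for 4 (HOXA13, HOXC8, HOXC12 and HOXD10). At heights of 10 or more the counts were 17 in the TGF-β1 list and 21 in the control list, 43.6% and 53.8%, against 32.7% and 39.9% of all genes. Strong peaks, as high as the peak ranked 10000 in its own list or higher, began at 15 in the TGF-β1 list and 17 in the control list. They lay at 9 HOX genes in the TGF-β1 list and 8 in the control list, 23.1% and 20.5%, against 15.7% and 17% of all genes. In both lists, 4 of the 39 HOX genes had one, against 2391 of all 20037 genes, 11.9%. These 4 were HOXA5, HOXC4, HOXC5 and HOXC6, of which the last 3 share 1 start. At HOXA5 the strong peaks lay at different ends, 20 at the 5′ end in the TGF-β1 list and 19 at the 3′ end in the control list. The median highest gene-end height, with genes without a peak at 0, was 8 in the TGF-β1 list and 10 in the control list for HOX genes, against 7 and 8 for all genes. A gene can have several gene-end peaks, and all those of the HOX genes were 61 different TGF-β1 peaks and 54 control peaks. Because HOX genes are close together, 1 peak can also serve several genes. In each list the highest peak was shared by HOXC4 to HOXC6, by HOXB7 and HOXB8, and by HOXD3 and HOXD4.

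**Figure D4:**
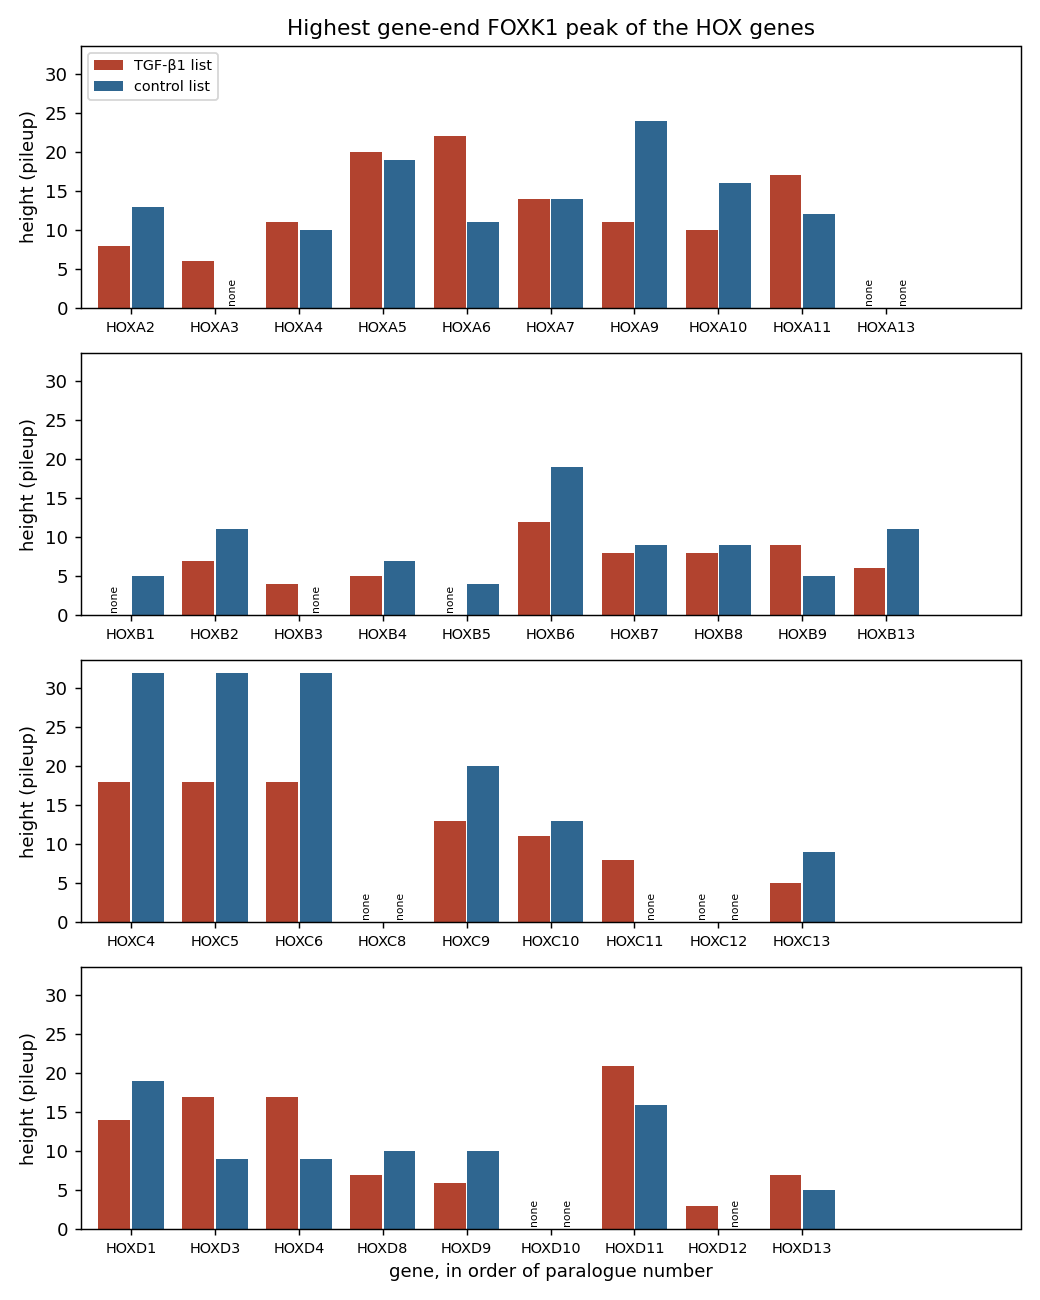
Height of the highest FOXK1 peak within 1 kb of either end (y axis, pileup) for the HOX genes (x axis, by paralogue number), with TGF-β1 bars left of control bars and 1 row per cluster. The highest are 22 at HOXA6 in the TGF-β1 list and 32 at HOXC4, HOXC5 and HOXC6, which share 1 peak, in the control list.

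Read by paralogue number, high gene-end peaks were most frequent among the genes numbered 4 to 8. The margin was wider in the TGF-β1 list and narrow in the control list. These numbers are not the middle of every cluster: HOXC has none below 4, so HOXC4 to HOXC6 lie at its 3′ side. The reading counts HOXC4 to HOXC6 as 3 genes and is a description with no test. Of the 15 genes numbered 4 to 8, 9 had a height of 10 or more in each list, and strong peaks lay at 6 in the TGF-β1 list and 5 in the control list. Of the 8 genes numbered 1 to 3, 2 and 4 had a height of 10 or more in the TGF-β1 and control lists, and of the 16 numbered 9 to 13, 6 and 8. Strong peaks lay at 1 of these 8 and 2 of these 16 in each list. Of all protein-coding genes, 32.7% and 39.9% had a height of 10 or more, and 15.7% and 17% a strong peak. In each list HOXC4, HOXC5 and HOXC6, which share 1 start, were 3 of the 9 genes numbered 4 to 8 with a height of 10 or more. They were also 3 of the 6 and 3 of the 5 with a strong peak. The TGF-β1 peak of 17 shared by HOXD3 and HOXD4 counts in the groups 1 to 3 and 4 to 8, so few places carry this reading. Paralogues of 1 number were not alike. Among those numbered 9, HOXA9 and HOXC9 had 11 and 13 in the TGF-β1 list and 24 and 20 in the control list, while HOXB9 and HOXD9 had 9 and 6 in the TGF-β1 list and 5 and 10 in the control list. Among those numbered 11, HOXA11 had 17 and HOXD11 had 21 in the TGF-β1 list, against 12 and 16 in the control list, and HOXC11 had 8 in the TGF-β1 list and no control peak at an end. None of the 4 genes numbered 13 passed a height of 11 in either list: HOXB13, HOXC13 and HOXD13 had 6, 5 and 7 in the TGF-β1 list and 11, 9 and 5 in the control list, and HOXA13 had no peak at an end.

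Where a HOX peak was high it was nearly always present in the other list, as were most peaks that high over the genome. Of the 29 TGF-β1 peaks of height 10 or more in the 4 windows, 28 overlapped a control peak, 96.6% (95% interval 82.2 to 99.9), against 84.7% of all TGF-β1 peaks that high. The exception was a peak of 10 in the flank of HOXA. Of the 46 control peaks that high, 41 overlapped a TGF-β1 peak, 89.1% (76.4 to 96.4), against 82.8% of all. Both intervals include the share of all peaks that high. The 5 control peaks without a counterpart were 1 inside HOXA3, 3 at or below HOXB13 and 1 at HOXD8, of heights 10 to 11. Peaks of height 5 to 9 overlapped in 44.9% of 98 TGF-β1 cases (34.8 to 55.3) and 35.8% of 81 control cases (25.4 to 47.2), against 23.3% and 24.0% of all peaks of these heights. In HOXA alone 19 of 38 TGF-β1 and 14 of 26 control peaks of these heights overlapped. There the other list covered 21.5% and 23.8% of the window, against 5.61% and 6.18% of the genome, and the part of this cover in the overlap was not tested. Intervals are exact binomial and cover counting error only.

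The HOX window peaks were also sorted by place, with a gene end taken as up to 1 kb on either side. The share of window bases that each place fills was not taken, so these counts are only a description. At a HOX gene end were 61 of 161 TGF-β1 peaks and 54 of 160 control peaks, inside a HOX gene 41 and 45, inside another RNA gene 28 and 27, between genes 14 and 15, and in the outer flanks 17 and 19. Of 28 long non-coding RNA genes in the windows, 22 and 21 had a peak at an end in the TGF-β1 and control lists, and 17 had one in both. Over all 18303 such genes of the genome these shares were 57.5%, 56.3% and 39.4%, and several of the RNA genes share their sites with HOX gene ends. HOTAIRM1, a myeloid RNA beside HOXA2, carried an internal peak of 16 in the TGF-β1 list and 20 in the control list. HOXA-AS2 had 18 and 19 in the TGF-β1 and control lists, and HOXC-AS1 had 13 and 20, from the HOXC9 site. HOTTIP, which lies beside HOXA13 and acts with a trithorax complex, had no gene-end peak in either list. HOTAIR, which binds a Polycomb complex, had none in the TGF-β1 list and one of 8 in the control list.

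The clusters also hold microRNA genes that target HOX transcripts, and their mature forms group by seed, bases 2 to 8, shown in capitals (RefSeq, GRCh38.p14).
hsa-miR-196b-5p, from MIR196B between HOXA9 and HOXA10: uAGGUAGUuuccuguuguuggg
hsa-miR-196a-5p, from MIR196A1 in HOXB and MIR196A2 in HOXC: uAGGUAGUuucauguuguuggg
hsa-miR-10a-5p, from MIR10A in HOXB: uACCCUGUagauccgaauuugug
The hairpin of MIR196B lay under a peak in both lists, 8 in the TGF-β1 list and 6 in the control list. The other hairpins with the same seed did not: the nearest peak was 3862 bp and 6421 bp from MIR196A1 and 3450 bp and 1180 bp from MIR196A2 in the TGF-β1 and control lists. MIR10A was 1334 bp and 1350 bp from its nearest peak, in the same order of lists. MIR10B in HOXD was 927 bp from a TGF-β1 peak of 17 and 1143 bp from a control peak of 9. MIR615 in HOXC was 1063 bp from a TGF-β1 peak of 18 and 816 bp from a control peak of 13. MIR3185 in HOXB was 904 bp and 1262 bp from peaks of 6 in the TGF-β1 and control lists. MIR7704, at the start of HOXD1, lay under the HOXD1 peaks, 14 in the TGF-β1 list and 19 in the control list.

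Other genes of the HOX system are read against 74.6% and 75.3% of all protein-coding genes with a peak at an end in the TGF-β1 and control lists, and 32.7% and 39.9% with one of height 10 or more. Of 9 TALE cofactors, homeodomain proteins that bind DNA with HOX proteins, 8 in the TGF-β1 list and 6 in the control list had a peak at an end, 88.9% and 66.7%, and 2 reached a height of 10 in each. MEIS1 and MEIS2 each had 14 in the TGF-β1 list, and 19 and 11 in the control list, and PBX2 had 9 in the TGF-β1 list and 7 in the control list. All 12 trithorax and boundary genes had a peak in both lists. The cohesin genes SMC3 and STAG2 had 86 and 83 in the TGF-β1 list and 82 each in the control list, and RBBP5, a methyltransferase subunit, had 49 in the TGF-β1 list and 57 in the control list. Of 21 Polycomb genes, 19 in the TGF-β1 list and 21 in the control list had a peak, 90.5% and 100%. EZH1, a histone methyltransferase, had 80 in the TGF-β1 list and 110 in the control list, and CBX2, a reader of the Polycomb mark, had 24 and 7 in the same order of lists. Of 49 other homeobox genes of development, 32 in the TGF-β1 list and 33 in the control list had a peak, 65.3% and 67.3%, which is below all genes, and 7 and 13 had one of height 10 or more, 14.3% and 26.5%. SIX4 and DLX2 had 56 and 14 in the TGF-β1 list and 74 and 18 in the control list. Of 8 EVX and ParaHox genes, the closest relatives of the clusters, 2 had a peak in each list. GSX2 had 9 in the TGF-β1 list and 14 in the control list.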

How the data were processed

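FOXK1 and input libraries of HK-2 cells with and without TGF-β1 were grouped by their titles. The authors deposited 1 peak list per condition, not pooled, whose signal column was read as pileup height from its whole values of at least 3. Per the submitters' processing notes, MACS2 2.1.1.20160309, bcl2fastq 2.17 and hg38 were used. Aligner, filters, threshold and depth are not given in the sources used here. The number and height of peaks move with depth.

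The peaks on the 24 assembled chromosomes were used. Software was Python 3.11.15 with scipy 1.17.1, pandas 2.3.3, numpy 2.4.6 and matplotlib 3.10.9. Starts were read as 0-based and are printed 1-based. Gene positions and promoter windows came from RefSeq GRCh38.p14, the chromosome coordinates of hg38, and strand from the promoter windows. A gene-end peak was one within 1 kb, on either side, of an annotated gene end. Windows were each cluster plus 20 kb, and a peak was counted by its midpoint. Genome density used the span from first to last peak of each chromosome. Gene-end assignment and overlap were tested on simulated peaks. Genes named were the HOX genes with their highest gene-end peak, window peaks of height 10 or more, and up to 4 of each other list. Values of 1 HOX gene and the peaks at its ends are neither reported here nor drawn, and it stays in the counts over groups of genes. The members and lists were chosen with earlier results of these data known.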

Additional observations from a re-analysis of the deposited data

How the results depend on the processing

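With 1 library per condition no call could be checked against a replicate, and depth limits every count of low peaks. No paired analysis was possible because each group has 1 library. Of 33 alternatives to 7 results, 15 stayed close to the reported value and 18 moved. Only a density ratio could reverse, by falling below 1, and none did. Counts and overlap shares had no such direction to reverse. Window sizes of 500 bp, 2 kb and 5 kb and 1-based starts left the counts of HOX genes with a gene-end peak within 1.5 times. Using annotated starts only, 13 of 20 HOX genes with a promoter window had a peak in the TGF-β1 list and 15 in the control list, where either end gave 17 and 16 of the same 20 genes. By construction, a height of 10 or more left 17 genes in the TGF-β1 list and 15 in both lists, and strong peaks left 9 in the TGF-β1 list and 8 in the control list. At heights of 10 or more, the density ratio of HOX windows to genome was 4.32 in the TGF-β1 list and 5.47 in the control list. For strong peaks it was 5.41 and 5.15 in the same order. HOXA alone gave 19 of the 29 TGF-β1 and 26 of the 46 control peaks of height 10 or more. It also gave 9 of the 14 and 8 of the 13 strong peaks. Without the HOXA window, an alternative added after the values were seen, the ratio for peaks of any height was 1.30 and 1.55. The ratio for high peaks was not taken without HOXA. The cause of the higher ratio among high peaks was not tested. The share of HOX window peaks that overlapped the other list, 47.8% of TGF-β1 and 48.1% of control peaks, was 34.2% and 34.4% when at least 50% of a peak's bases had to be covered, 96.6% and 89.1% for heights of 10 or more, and 56.8% and 56.4% without the flanks.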

Other observations

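The nearest protein-coding genes outside the clusters each had a peak within 1 kb of an end in at least 1 list. That is the common case: of all 20037 protein-coding genes, only 2831 had none in either list. SKAP2, an adaptor protein gene 228403 bp below HOXA, had a height of 19 in the TGF-β1 list and 23 in the control list. CALCOCO1, below HOXC, had 17 in the TGF-β1 list and 27 in the control list. SKAP1, below HOXB, had 6 in each list, and MTX2, a mitochondrial gene above HOXD, had 6 in the TGF-β1 list and 8 in the control list. EVX1, above HOXA, had 6 in the TGF-β1 list and no control peak, and SMUG1, a DNA repair gene above HOXC, had 8 in the TGF-β1 list and no control peak. EVX2, which adjoins HOXD13, and TTLL6, above HOXB, had no TGF-β1 peak, and 4 and 6 in the control list. Between HOXB9 and HOXB13, PRAC2 had 6 in each list and PRAC1 had none.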
